A study of Mus musculus with 7 samples.

Results

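JAK kinases and STAT factors carry cytokine signals from the cell surface to the nucleus. In these arrays 9 genes of the pathway were followed: the kinases Jak1, Jak2 and Jak3 and the factors Stat2, Stat3, Stat4, Stat5a, Stat5b and Stat6. They were chosen by name. Every non-control probe whose gene name in the scanner files was one of these symbols was taken, which gave 14 probes among 55681 on the array. All 14 were well above background on all 7 arrays, so all 9 genes entered the comparison of 16457 genes.

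The samples were CD8 T lymphocytes from lymph nodes of mice that were OT-1het and Rag-/-, in 4 WT and 3 Lck-/- samples described by the series as biological replicates. OT-1 is a T cell receptor that recognises the ovalbumin peptide SIINFEKL, and Rag-/- mice make no other T or B cell receptors. All cells had been cultured for 24 h in IMDM with 100 nM SIINFEKL. The Lck-/- mice lacked the endogenous kinase Lck and carried an inducible Lck that had been switched off by taking doxycycline out of the diet for 7 days. No doxycycline feeding is given for the WT mice, so feeding, the inducible construct and the loss of the kinase cannot be told apart. The promoter that drives the inducible Lck, the age of the mice and any pooling of animals are not given in the sources used here.

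As background, the receptors for most interleukins and interferons have no kinase activity of their own. JAKs sit on their inner tails, switch each other on when a cytokine brings the chains together, and phosphorylate tyrosines to which STATs bind. Phosphorylated STATs pair up, enter the nucleus and switch on genes. In CD8 T cells JAK1 and JAK3 serve the receptors that share the common gamma chain, such as those of IL-2 and IL-15, which act mainly through STAT5A and STAT5B. JAK2 serves the receptors of IL-12 and interferon gamma. This signal runs through phosphorylation, which mRNA arrays do not measure.

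Each of the 14 probes is a 60-mer, and where along the transcript it lies decides which part of the message it reads. The single Jak2 probe, A_55_P1971458, lies at mm9 chr19:29387487-29387546 on the plus strand and starts at base 4946 of NM_008413. The single Jak1 probe, A_52_P106463, lies at mm9 chr4:100825094-100825153 on the minus strand. For Stat3, Stat6 and Jak3 the files hold 4 more probes that lie upstream of the probe that stands for the gene. They give a second look at 3 members from another part of the message, and those of Stat6 and Jak3 are shown for that reason. Which exon each probe falls in was not analysed here. The sequences are printed as on the array, with no letters set apart.
Stat6 A_52_P132761: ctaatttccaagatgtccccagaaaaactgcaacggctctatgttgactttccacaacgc
Stat6 A_65_P00601: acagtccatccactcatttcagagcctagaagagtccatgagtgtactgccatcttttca
Jak3 A_55_P2010912: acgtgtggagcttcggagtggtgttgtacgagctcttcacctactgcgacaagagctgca
The 2 Stat6 probes lie at mm9 chr10:127083983-127084042 and chr10:127095694-127095753 on the plus strand, and start at bases 300 and 2354 of NM_009284. The Jak3 probe lies at mm9 chr8:74210801-74210860 on the plus strand and starts at base 3223 of NM_001190830. The probes that stand for the other members lie on mm9 at chr10:127729834-127729893 for Stat2, chr11:100749598-100749657 for Stat3 and chr1:52163802-52163861 for Stat4. Those of Stat5a, Stat5b and Stat6 lie at chr11:100746373-100746432, chr11:100642045-100642104 and chr10:127097689-127097748. No run of letters longer than 12 was shared between probes of different members. In the files the other Jak3 probe, A_51_P355360 at mm9 chr8:74214085-74214144, is also assigned to a transcript of Insl3, a neighbouring gene that overlaps Jak3, so signal from both genes cannot be told apart there.

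Values are log2 processed signal minus the 75th percentile of each array, so 0 is that percentile. A probe's level depends on its sequence as well as on the message, so levels are compared between arrays and never between genes. The arrays had 46.6% to 61.1% of spots well above background and none saturated, and their number limits the precision. Their quality was uneven too. Non-uniform spots were most frequent for WT 3, where 1403 were counted. Lck-/- 1 had 422 and Lck-/- 3 had 144, while no other array had more than 31. The effect of these spots on the results was not tested separately. The Lck probe itself did not follow the labels. It read 7.44, 7.67, 7.36 and 6.04 on the arrays labelled WT 1 to 4, and 8.02, 6.21 and 6.17 on the arrays labelled Lck-/- 1 to 3. The arrays labelled WT 4 and Lck-/- 1 thus went against their labels, though which part of Lck was removed, and whether the probe lies in it, is not stated. Results are given with all 7 arrays and, where stated, without these 2. Of the T cell markers 8 of 8 were tested, 7 with a difference above 0 and 1 below, and limma called none. Relative to the WT mean, their mean ran from -0.19 to 0.19 in WT and from -0.02 to 0.58 in Lck-/-. It was highest on the array labelled Lck-/- 1. Of 6 B cell markers, Cd79a and Cd79b were well above background on all 7 arrays, with differences of 0.48 and 0.53, and the other 4 on at most 1 array. Of 10 markers of dendritic cells and macrophages 9 were tested, and their mean ran from -0.80 to 0.76 in WT and from 0.38 to 0.91 in Lck-/-, relative to the WT mean. Relative to the WT mean, the mean of 10 NK cell markers ran from -1.23 to 1.75 in WT and from 0.64 to 2.20 in Lck-/-. The mean of 10 mitosis genes ran from -0.63 to 0.77 in WT and from -1.48 to -0.51 in Lck-/-.

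None of the 9 JAK and STAT genes passed limma's test between Lck-/- and WT, and at an unadjusted p under 0.05 the count was also 0. The same held for the whole array in the adjusted test, where limma called 0 of 16457 genes (0%), with 1161 (7.05%) at an unadjusted p under 0.05. The difference, Lck-/- minus WT, was above 0 for 6 of the 9 members and below 0 for 3, with a median of 0.09. Over all genes the median was 0.05, with 59.2% above 0 and 40.8% below. Among the 14 member probes 0 had an unadjusted p under 0.05 in the fit over 29238 probes, where 6.82% of probes did. The largest difference of a member, 0.45 for Jak3, was a 1.36-fold change. The median standard error was 0.177 for the members and 0.193 for all genes, so the members were measured about as precisely as the rest.

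**Figure D1:**
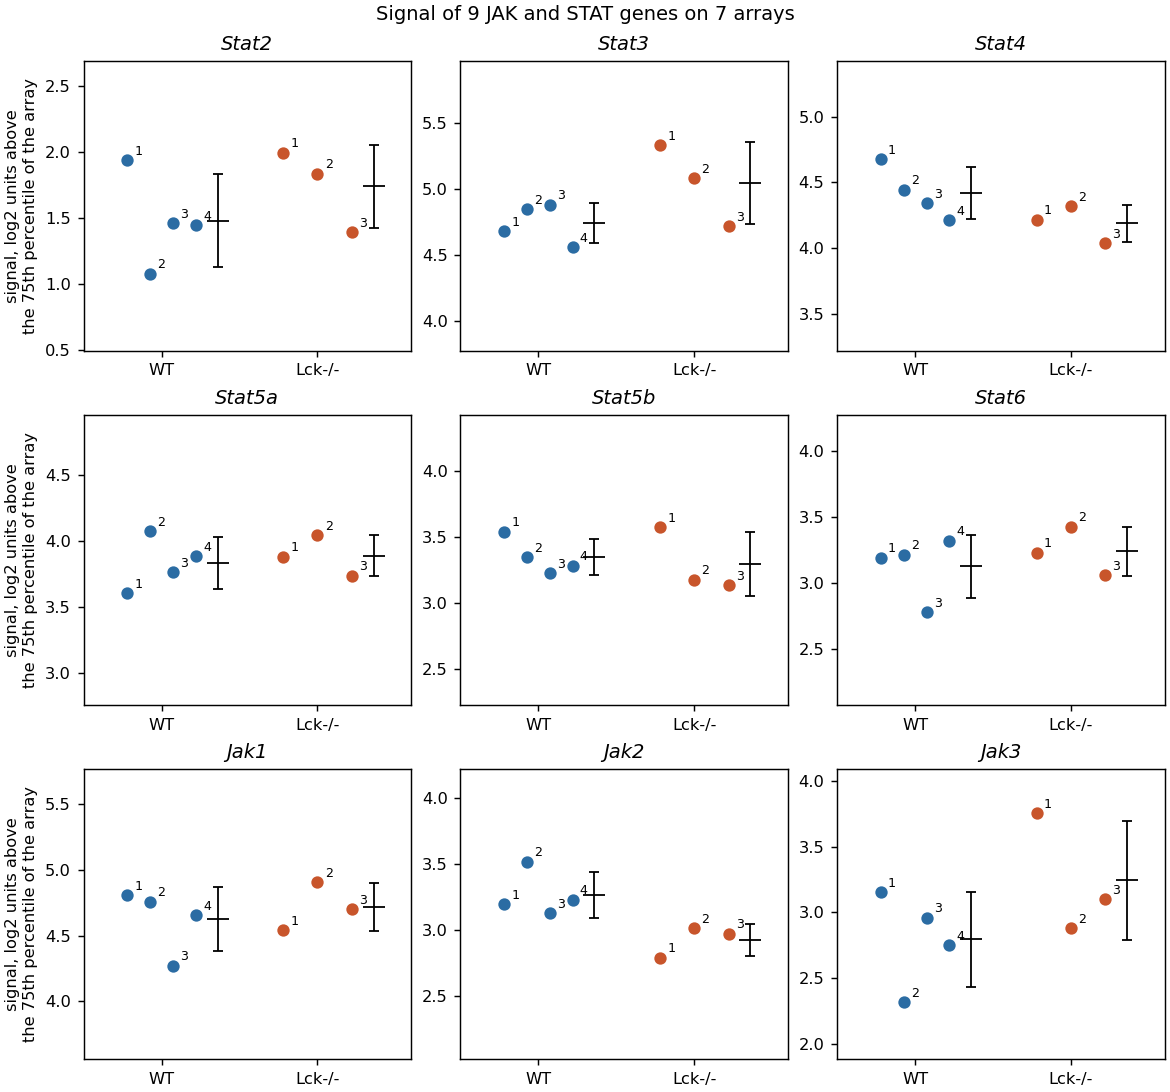
Level of each JAK and STAT gene on every array, as log2 signal minus the array's 75th percentile. Blue points are WT and orange points Lck-/- arrays, numbered by replicate, and black bars give the mean ± SD of each group (n = 4 and n = 3). Jak2 is the gene whose groups do not overlap, with the Lck-/- points between 2.79 and 3.01 and the WT points between 3.13 and 3.52.

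Among the kinases, Jak2 was the only member whose groups did not overlap. The WT arrays read 3.20, 3.52, 3.13 and 3.23. The Lck-/- arrays read 2.79, 3.01 and 2.97. Every Lck-/- array was below every WT array, with the closest pair being the arrays labelled Lck-/- 2 and WT 3. The means were 3.27 ± 0.17 (SD, n = 4) and 2.92 ± 0.12 (SD, n = 3). The difference was -0.34 with a standard error of 0.15 and a 95% interval from -0.69 to 0.0013, a level 0.788 times that of WT. It did not pass limma's test across all genes, with an adjusted p of 0.70 and an unadjusted p of 0.0507. Groups without overlap occurred in 7.29% of all genes tested, with Lck-/- the lower in 1.95% and the higher in 5.34%. A single member among 9 does not stand apart from that share. Without the arrays labelled WT 4 and Lck-/- 1 the difference was -0.29 with a standard error of 0.20. In the first row of the slide, with 2 WT and 2 Lck-/- arrays, the difference was -0.44. In the second, with 2 WT and 1 Lck-/- array, it was -0.20.

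Jak3, the partner of the common gamma chain, had the largest difference of the members and also the widest spread. The WT arrays read 3.16, 2.32, 2.96 and 2.75, and the Lck-/- arrays 3.75, 2.88 and 3.10. The array labelled WT 2 was lowest and the array labelled Lck-/- 1 highest, and the groups overlapped. The difference was 0.45 with a standard error of 0.27 and an interval from -0.18 to 1.07 (limma, adjusted p = 0.794). Leaving out the array labelled Lck-/- 1 brought it to 0.19, and leaving out both doubted arrays to 0.18. It was 0.79 in the first row of the slide (2 WT and 2 Lck-/- arrays) and -0.08 in the second (2 WT and 1 Lck-/- array).

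The upstream Jak3 probe, which does not carry the Insl3 assignment, gave a smaller difference of 0.12 with a standard error of 0.16. It read 3.02, 2.60, 2.81 and 2.69 in WT and 3.06, 2.70 and 2.94 in Lck-/-. Both probes put the 7 arrays in the same order, and their values correlated at r = 0.91 over the 7 arrays (exact permutation p = 0.0006, adjusted 0.0036 over 6 pairs of probes). Spearman's rho was 1 (exact permutation p = 0.0004, adjusted 0.0024). Without the 2 arrays farthest from the median r was 0.96. The probes thus shared their order over arrays, and their differences between groups lay 0.33 apart.

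Jak1, which serves nearly all of these receptors, read 4.81, 4.76, 4.27 and 4.66 in WT and 4.54, 4.91 and 4.70 in Lck-/-. The groups overlapped widely, and the array labelled WT 3 was lowest. The difference was 0.09 with a standard error of 0.18 and an interval from -0.32 to 0.50 (limma, adjusted p = 0.96). This interval allows a level between 0.80 and 1.42 times that of WT.

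Stat5a and Stat5b, which carry IL-2 and IL-15 signals, had the smallest differences. Stat5a read 3.60, 4.07, 3.76 and 3.88 in WT and 3.88, 4.04 and 3.74 in Lck-/-. Stat5b read 3.54, 3.34, 3.22 and 3.28 in WT and 3.58, 3.18 and 3.13 in Lck-/-. For Stat5a the Lck-/- arrays lay inside the WT range, and for Stat5b they lay on both sides of it. The difference was 0.06 for Stat5a, with a standard error of 0.16 and an interval from -0.32 to 0.43 (limma, adjusted p = 0.979). It was -0.05 for Stat5b, with a standard error of 0.16 and an interval from -0.43 to 0.32 (limma, adjusted p = 0.981). The second Stat5b probe, A_55_P2031045, gave -0.04 with a standard error of 0.15. Without the arrays labelled WT 4 and Lck-/- 1, Stat5b read -0.21 and Stat5a 0.08.

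Stat3, which follows IL-6, IL-10 and IL-21, lies beside Stat5a and Stat5b on chromosome 11. It read 4.68, 4.85, 4.88 and 4.56 in WT and 5.33, 5.08 and 4.72 in Lck-/-. The arrays labelled Lck-/- 1 and 2 were above all WT arrays, and the array labelled Lck-/- 3 was among them. The means were 4.74 ± 0.15 (SD, n = 4) and 5.04 ± 0.31 (SD, n = 3). The difference was 0.30 with a standard error of 0.18 and an interval from -0.12 to 0.72 (limma, adjusted p = 0.79). It moved to 0.16 without the array labelled Lck-/- 1, to 0.47 without Lck-/- 3, and to 0.10 without both doubted arrays.

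This Stat3 probe was spotted 10 times on each array, which shows the error of a single spot. Over all 10 spots, with the 6 of 70 spot values flagged as outliers included here, the SD between spots of 1 array ran from 0.017 to 0.128 and was highest on the array labelled Lck-/- 1. Spots of 1 array were thus closer to each other than WT arrays were. The upstream Stat3 probe read -1.04, -0.96, -1.05 and -0.59 in WT and -0.05, -0.86 and -0.37 in Lck-/-. Its difference was 0.48 with a standard error of 0.23. Both probes had a difference above 0, but their order over the arrays differed. They correlated at r = 0.41 (exact permutation p = 0.366, adjusted 0.503) and rho = 0.18 (exact permutation p = 0.713, adjusted 0.713). Without the 2 farthest arrays r was -0.23.

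Stat4, the factor of IL-12 signalling, read 4.68, 4.44, 4.34 and 4.21 in WT and 4.22, 4.32 and 4.04 in Lck-/-. The array labelled Lck-/- 3 was lowest and the array labelled WT 1 highest, and the groups overlapped. The difference was -0.23 with a standard error of 0.16 and an interval from -0.59 to 0.14 (limma, adjusted p = 0.825). Without the 2 doubted arrays it was -0.31, and Stat4 was then, with Jak2 and Stat5b, 1 of 3 members whose 3 WT and 2 Lck-/- arrays did not overlap, all with Lck-/- the lower. With these few arrays 27% of 16428 genes had groups without overlap, 9.76% with Lck-/- the lower, and limma called 0.335% of genes but no member.

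Stat6, the factor of IL-4 signalling, read 3.19, 3.21, 2.78 and 3.32 in WT and 3.23, 3.43 and 3.06 in Lck-/-. The groups overlapped, with a difference of 0.11, a standard error of 0.18 and an interval from -0.30 to 0.52 (limma, adjusted p = 0.95). The probe that starts at base 2354 gave 0.22 with a standard error of 0.20 and the probe at base 300 gave 0.10 with a standard error of 0.31. Between the probe that stands for Stat6 and the probe at base 2354, r was 0.83 (exact permutation p = 0.0339, adjusted 0.102) and rho 0.75 (exact permutation p = 0.0663, adjusted 0.199). Without the 2 farthest arrays r was 0.45. The probe at base 300 was dim, between -2.27 and -1.03, and spread most over arrays.

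Stat2 works with IRF9 downstream of type I interferon and is itself induced by it. It read 1.94, 1.08, 1.46 and 1.44 in WT and 2.00, 1.84 and 1.39 in Lck-/-. The arrays labelled Lck-/- 1 and WT 1 were highest and the groups overlapped. The difference was 0.26 with a standard error of 0.24 and an interval from -0.29 to 0.81 (limma, adjusted p = 0.874). It was 0.13 without the array labelled WT 2 and 0.44 without Lck-/- 3.

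Over 36 pairs of members, the strongest correlation over the 7 arrays joined Jak2 and Jak3 at r = -0.89 (exact permutation p = 0.0169, adjusted 0.433) and rho = -0.75 (exact permutation p = 0.0663, adjusted 0.795). It was -0.26 without the 2 arrays farthest in Jak2. The neighbours Stat5a and Stat5b had r = -0.23 and rho = 0 (exact permutation, adjusted p = 0.911 and 1). None of the 36 pairs passed after adjustment.

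The genes around the members were described in 6 lists holding 95 genes, of which 89 were tested. Limma called none of them. Over all 16457 genes, 59.2% were above 0, 7.05% had an unadjusted p under 0.05 and 7.29% had groups without overlap. Some genes, such as Socs1, Socs3, Cish and Osm, stand in more than 1 list, so the lists are not independent. The lists were also chosen with earlier results of these data known. Their counts beside the shares over all genes are therefore a description and not a test. Of the receptors that bind JAKs, 15 of 19 tested were above 0, with a median difference of 0.41, and 7 had an unadjusted p under 0.05. The median was 0.22 without the array labelled WT 3. Il10ra and Il10rb, the chains of the IL-10 receptor that signals through STAT3, differed by 1.06 (standard error 0.29) and 0.72 (standard error 0.19), both with a limma adjusted p of 0.636. Il27ra differed by 0.59 and Ifngr2, a chain of the interferon gamma receptor, by 0.58. The 4 receptors below 0 were Il2ra, Il6ra, Il6st and Il15ra, all but Il2ra named after their values were seen. Il2ra, the high-affinity chain of the IL-2 receptor, read 6.49 ± 0.23 in WT (SD, n = 4) and 6.16 ± 0.15 in Lck-/- (SD, n = 3), without overlap (limma, adjusted p = 0.75).

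The 19 brakes on the pathway split, with 8 above and 11 below 0 and a median of -0.01, of which 4 had an unadjusted p under 0.05. With 1 array left out the median ran from -0.09, without WT 3, to 0.04, without Lck-/- 1. Those 4 all had differences above 0, and 3 of them are feedback inhibitors that STATs switch on. Socs2, listed here both as a brake and as a STAT5 and STAT3 target, differed by -0.36 with a standard error of 0.46. Socs4, Socs5, Socs6 and Socs7 were also below 0, between -0.15 and -0.01. Socs2 and these other Socs genes below 0 were named after their values were seen. Socs1, which blocks JAK activity, read 3.95 ± 0.23 in WT and 4.67 ± 0.25 in Lck-/- (SD, n = 4 and n = 3). Socs3, which acts on receptors that use STAT3, read 2.49 ± 0.26 and 3.31 ± 0.33. Cish, which is induced by STAT5, read 5.06 ± 0.28 and 5.67 ± 0.25. The Socs1 and Socs3 groups did not overlap, and limma's adjusted p was 0.636 for both and 0.64 for Cish. Over all genes 59.2% were above 0, 7.05% had an unadjusted p under 0.05 and 7.29% had groups without overlap. The other of the 4, Pias3, was well above background on only 1 WT array but on all 3 Lck-/- arrays. It thus passed the filter mainly through the group where it read higher. The phosphatase Ptpn6 differed by 0.02.

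Genes that STAT5 and STAT3 switch on were above 0 in 17 of 22 cases, with a median of 0.32 and 10 at an unadjusted p under 0.05. These 10 include Tnfrsf4, which was below 0 at -1.12 (standard error 0.43) and was named after its value was seen. Over all genes 59.2% were above 0 and 7.05% had an unadjusted p under 0.05. Bcl2, which protects cells from death, had the smallest adjusted p of the lists. It read 3.31 ± 0.09 in WT and 4.04 ± 0.19 in Lck-/-, a difference of 0.72 with a standard error of 0.14 (limma, adjusted p = 0.592). Gzmb, the cytotoxic protease granzyme B, differed by 1.86 with a standard error of 0.55 (limma, adjusted p = 0.636). NK cells express Gzmb too, and which cells the signal came from was not tested. The NK markers had differences above 0 in 10 of 10 cases, with a median of 1.25, and limma called none of them. Their mean on the array labelled WT 4, at 1.75, lay above 2 of the 3 Lck-/- arrays. The cell cycle gene Ccnd2 differed by 0.04.

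Interferon-stimulated genes that lie downstream of STAT2 were above 0 in 18 of 19 cases, with a median of 0.36, but only Xaf1 had an unadjusted p under 0.05. Over all genes 59.2% were above 0 and 7.05% had such a p. The exception below 0 in this list was Mx2, named after its value was seen. Xaf1 differed by 0.66 with a standard error of 0.27, Irf7 by 0.59 with 0.31, and Isg15 by 0.25 with 0.29 (limma, adjusted p of 0.699, 0.756 and 0.91). No gene of this list had groups without overlap. The median was 0.88 without the array labelled Lck-/- 1 and 0.19 without Lck-/- 2. With both doubted arrays left out, a choice made after the data were seen, it was 0.96 and limma called no gene of the list. In that fit 14 of the 19 genes had an unadjusted p under 0.05, as did 10.5% of all genes. For Ifit3, for example, the arrays left out were the highest WT array, at -1.96, and the lowest Lck-/- array, at -3.78. Leaving them out thus had to widen its difference. Ifit3 was named after its values were seen.

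Partners and targets of STAT4 and STAT6 were above 0 in 10 of 10 cases, with a median of 0.50 and 3 at an unadjusted p under 0.05. Over all genes 59.2% were above 0 and 7.05% had an unadjusted p under 0.05. Gata3, which STAT6 induces, differed by 0.76 with a standard error of 0.24, and Il18r1, a receptor chain that IL-12 induces, by 0.97 with a standard error of 0.32. The transcription factor Tbx21 differed by 0.19. Ligands of the pathway made by T cells were above 0 in 10 of 13 cases, with a median of 0.67 and 5 at an unadjusted p under 0.05. Of these 5, Il5 and Il9 differed by 2.70 and 1.13, but were well above background on only 2 and 1 WT arrays. Both were so on all 3 Lck-/- arrays, and thus passed the filter mainly through the group where they read higher. When all 7 arrays had to be well above background, 9 ligands remained, with a median of 0.56. Il22 differed by 2.13 with a standard error of 0.81 and Osm by 0.91 with 0.25. Il2, the growth factor of T cells, read 3.96 ± 0.76 in WT (SD, n = 4) and 2.92 ± 0.62 in Lck-/- (SD, n = 3), a difference of -1.04 (limma, adjusted p = 0.70). It was among the 5 ligands at an unadjusted p under 0.05, and the only such ligand below 0. Leaving out 1 array moved the median of the STAT4 and STAT6 list to between 0.32, without Lck-/- 2, and 0.77, without Lck-/- 1. That of the ligands moved to between 0.37, without WT 1, and 1.14, without Lck-/- 1.

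**Figure D2:**
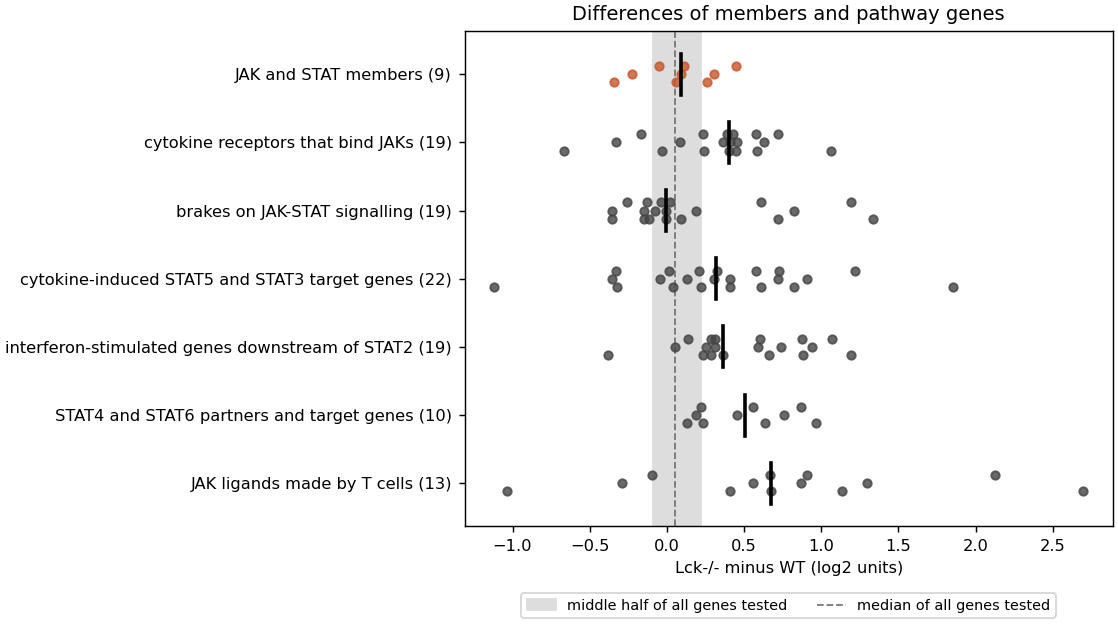
Difference Lck-/- minus WT (log2 units) of every tested gene of the members (orange) and of the 6 lists around them (grey), with the number tested in brackets and the median of each list as a black bar. The grey band runs between the quartiles of all 16457 genes, from -0.09 to 0.22, and the dashed line their median of 0.05. The band describes single genes and is no yardstick for a median. The members' differences lie between -0.34 and 0.45 and the median differences of the lists between -0.01 and 0.67.

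The NK markers had a wider range over the arrays than any member. With their mean added to the fit, a choice made after the data were seen, the list medians became 0.28 for receptors, -0.11 for brakes, 0.16 for STAT5 and STAT3 targets, 0.09 for interferon-stimulated genes, 0.16 for STAT4 and STAT6 targets and 0.30 for ligands. In that fit Jak2 differed by -0.40 and Jak3 by 0.65. In bulk RNA more cells of a type and more RNA per cell cannot be told apart. Centring each array on its median instead of its 75th percentile shifted the median of all genes from 0.05 to -0.15. It left 3 members above 0 and 6 below, with 27.0% of all genes above 0. The list medians were then 0.20, -0.21, 0.12, 0.16, 0.30 and 0.47 in the same order. Jak2, Stat4 and Stat5b were below 0 and Jak3, Stat3 and Stat2 above 0 on both scales.

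**Figure D3:**
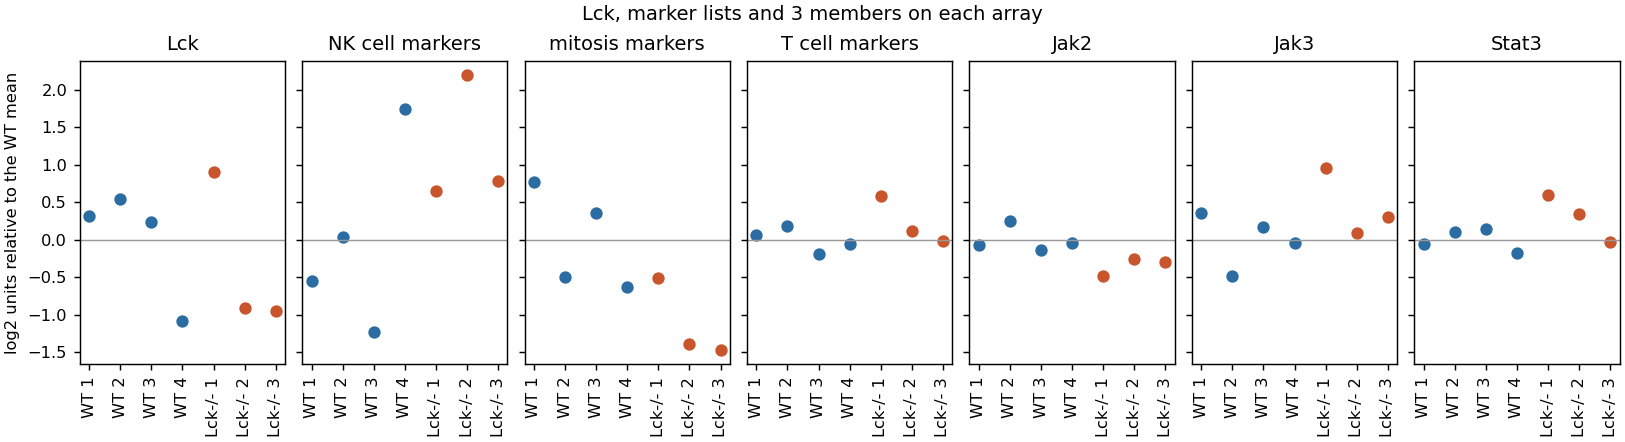
Values of the 7 arrays relative to the WT mean (log2 units), with blue points for WT and orange points for Lck-/- and the replicate on the x axis. The panels show the Lck probe, the means of the NK cell, mitosis and T cell markers, and Jak2, Jak3 and Stat3. In the Lck panel the array labelled WT 4 lies with 2 of the Lck-/- arrays and the array labelled Lck-/- 1 above all others, and the NK markers range from -1.23 to 2.20.

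Many STAT pairs bind DNA at a short palindrome, TTCNNNGAA. The complex that holds STAT2 and IRF9 binds at a repeat, GAAA and again GAAA with any 2 bases between. Both were searched on both strands in RefSeq promoters of GRCm38.p6, from 250 bases before to 50 after each gene start. The palindrome stood in 8.3% of 32851 promoters and in 0 of the 12 promoters of the 9 members. The repeat stood in 3.44% of all promoters and in 2 of these 12, one of Stat2 and one of Stat4. These 2 stretches are shown because they are the members' own matches, with the motif in capitals.
Stat2, GRCm38.p6 chr10:128270258-128270317, plus strand: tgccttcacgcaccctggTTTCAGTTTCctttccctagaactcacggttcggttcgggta
Stat4, GRCm38.p6 chr1:52008120-52008179, plus strand: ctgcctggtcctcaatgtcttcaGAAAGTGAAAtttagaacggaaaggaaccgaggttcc
The Stat2 match lies on the opposite strand to the repeat as spelled. Among the pathway genes the palindrome stood in 4 of 17 promoters of the receptors, 2 of 13 of the brakes, 5 of 22 of the STAT5 and STAT3 targets, 4 of 18 of the interferon-stimulated genes, 4 of 15 of the STAT4 and STAT6 list and 2 of 13 of the ligands. The repeat stood in 7 of 18 promoters of the interferon-stimulated genes, in 0 of 17 of the receptors and in 1 promoter of each other list. Of the 19 brakes, 11 had a promoter in this search. Cish and Socs3 held a palindrome and Socs1 a repeat. These 3 were named above by their small p in these same data, so the overlap is no support for induction by STATs. The stretches of these 3 genes, and that of the interferon-stimulated gene Isg15, show how the motifs stand, alone, in pairs or overlapping.
Cish, GRCm38.p6 chr9:107296654-107296683, plus strand: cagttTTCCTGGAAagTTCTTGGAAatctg
Socs3, GRCm38.p6 chr11:117969482-117969541, minus strand: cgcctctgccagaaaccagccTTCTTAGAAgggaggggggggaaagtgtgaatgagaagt
Socs1, GRCm38.p6 chr16:10785582-10785641, minus strand: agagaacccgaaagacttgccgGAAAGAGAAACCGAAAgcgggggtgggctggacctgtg
Isg15, GRCm38.p6 chr4:156200854-156200913, minus strand: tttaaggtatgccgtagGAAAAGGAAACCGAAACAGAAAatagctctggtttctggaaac
A match is a description of these letters and not evidence of binding, and other places than these windows were not searched. Palindromes with another spacing, for STAT6 or any other STAT, were not searched either.

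The members whose direction held under every alternative tried were Jak2, Jak3, Stat2, Stat3 and Stat4. Jak2 ran from -0.55 with median centring to -0.26 without the array labelled WT 2, and had an unadjusted p under 0.05 in 6 of 20 alternatives. In those with the stricter filter and with the mean of a gene's probes, its difference was the unchanged -0.34. Jak3 ran from 0.18 to 0.65. Stat2 ran from 0.06 to 0.44, Stat3 from 0.10 to 0.47 and Stat4 from -0.43 to -0.14. Stat5a, Stat5b, Stat6 and Jak1 each changed sign under at least 1 alternative. No member passed the adjusted threshold under any of the 20.

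**Figure D4:**
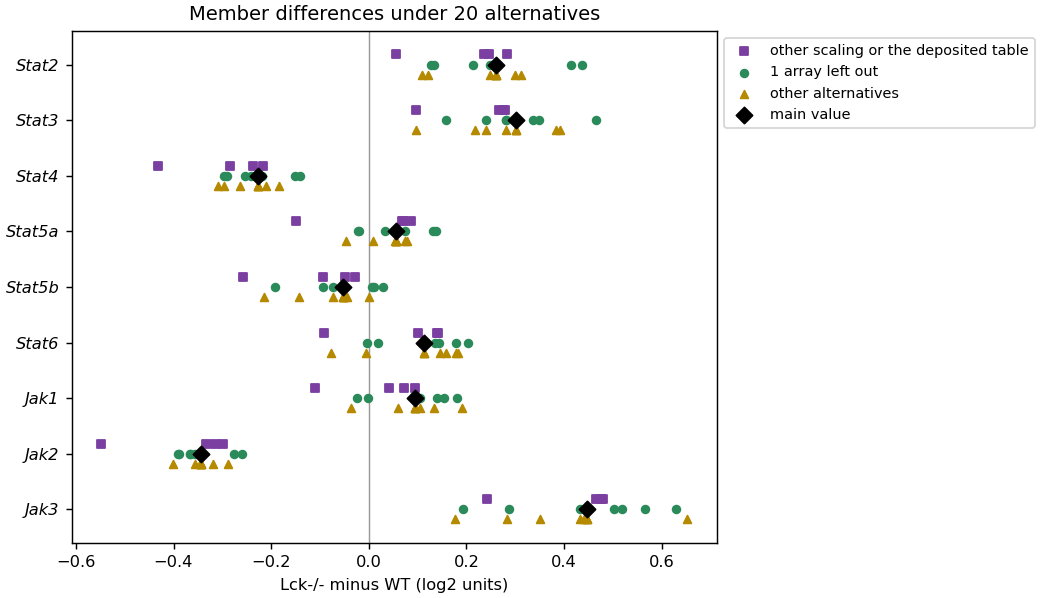
Difference Lck-/- minus WT (log2 units) of each member under the 7-array comparison and under each of the 20 alternatives. Jak2 and Stat4 stay below 0 and Jak3, Stat3 and Stat2 above 0 throughout, while the points of Stat5a, Stat5b, Stat6 and Jak1 lie on both sides.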

How the data were processed

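The 9 members and the 6 gene lists were chosen with earlier results of these data known. Spot intensities were deposited by the authors as scanner files made, per the file headers, with Agilent Feature Extraction 10.7.3.1, as a background-subtracted processed signal not scaled between arrays. The authors' deposited table of log2 values, of unknown normalization between arrays, was used only as an alternative. From the processed intensity, log2 values minus each array's 75th percentile over non-control spots were computed. Outlier-flagged spots were left out and spots of a probe averaged. A probe entered when well above background on at least 3 of 7 arrays, and the probe with the highest mean stood for its gene. Gene names came from the files and a RefSeq gene table of GRCm38.p6, and 18938 probes without a name were left out. Probe coordinates are the files' own, on mm9.

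Groups came from the sample titles. Lck-/- was compared with WT by limma 3.58.1 in R 4.3.3 (two-sided, Benjamini-Hochberg over all 16457 genes, threshold 0.05), without other covariates. Of these genes, 770 lacked at least 1 outlier-flagged value. A separate limma fit over 29238 probes gave the values of single probes. Correlations over arrays have exact permutation p-values, two-sided. Genes chosen for naming were all members, Lck and, from each list, the 4 with the smallest unadjusted p and the 2 with the highest signal. Not all of these are described in the text. The procedure was tested on simulated data. It recovered 44 of 100 genes changed by 1 log2 unit and 94 of 100 changed by 2, with 9 false calls. Many changes of 1 log2 unit were thus missed even there. Settings changed in turn were the scaling (quantile, normexp with an offset of 50, median), the table used, the filters, the choice of probe, array weights, blocks and single arrays left out. Chosen after seeing the data were 3 more: a fit without WT 4 and Lck-/- 1, whose Lck values oppose their labels, a fit with the NK marker mean and a block for slide row. All arrays were on 1 slide. Some items are not reported here.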

Additional observations from a re-analysis of the deposited data

Results flagged for a closer look

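In 1 of the 40 genes chosen for naming, 1 WT array stood apart from the other 3. Gzmb, the granzyme B gene, read 4.48 on the array labelled WT 2, against 6.54 to 6.86 on the other WT arrays, a gap of 0.865 of the whole WT range. Chance alone flags about 1 in 20 groups. No JAK or STAT member stood out in this way in the WT group, and the Lck-/- group of 3 was too small for this check.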

How the results depend on the processing

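No member and no list gene passed the adjusted threshold under any of the 20 alternatives. Over all genes the count was 0 (at an unadjusted p under 0.05, 1161), but 2 without the array labelled WT 1 and 55 without both WT 4 and Lck-/- 1, whose Lck values oppose their labels, a choice made after the data were seen. Signs reversed for 4 members in 16 of 180 values, some of which could not differ from the main value. With median centring Stat5a was -0.15, Stat6 -0.091 and Jak1 -0.11. With the NK covariate Stat5a was -0.046, Stat6 -0.078, Jak1 -0.036 and Stat5b 2.80e-05. With array weights Stat6 was -0.0064. Leaving out 1 array at a time gave -0.023 to 0.14 for Stat5a, -0.0028 to 0.20 for Stat6, -0.023 to 0.18 for Jak1 and -0.19 to 0.029 for Stat5b. The cause was not tested. Arrays with the same replicate number correlated in their deviations at -0.02 to 0.09, so the numbers were not taken as pairs; with the replicate number as a block 0 genes were called and Jak2 was -0.36. Standard errors of about 0.15 to 0.27 with 7 arrays limit what can be seen in the members.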

Other observations

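For the 3 members with the smallest unadjusted p, the genes whose values over the 7 arrays were most alike were listed among 13530 genes well above background on every array. For Jak2 these were 5033430I15Rik (r = 0.97), AI606181 (0.96) and Gm4129 (0.95), and 35 genes had an r over 0.9. For Jak3 they were Lmntd2, Tmem191c and Rnf181 (each 0.98), with 63 genes over 0.9. For Stat3 the closest was the transcript probe ENSMUST00000104977 (r = 0.998), followed by NAP063136-1 and TC1619275 (each 0.97), with 21 genes over 0.9. With 7 arrays and this many genes such values are a description, and no p is given.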
